A study of Mus musculus with 16 samples.

Results

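The account below covers 5 mouse genes, Mmp24, Fermt2, Apbb1, Scd2 and Plcd3, in which translocation junctions pile up in a narrow stretch of DNA in libraries of both stimuli. All junctions that the deposited lists give under exactly these gene names were taken, 321 of the 33479 junctions outside chromosome 15 (0.959%) and of 141167 junctions in all. The genes were chosen by the narrowness of that cluster, measured over all libraries, so it is given below as a description and not as a result. The working name of the set was cryptic I-SceI cut sites. A stretch similar to the I-SceI site was found in the cluster of 4 of the genes and not in that of Plcd3, and whether I-SceI cuts there was not tested.

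The assay was translocation sequencing on genomic DNA, which starts from a break at a known place, the bait, and reads the DNA ends, the prey, that joined to it. As bait every group carried 25 I-SceI sites in a cassette placed in the first intron of 1 c-myc allele, on chromosome 15, and the cells were IgM+ splenic B cells from 129sv mice aged 6 to 8 weeks. I-SceI was brought in by a retrovirus that also encodes GFP. The design asks how junctions differ with the kinase ATM and with the stimulus. The libraries labelled ATM-deficient (n = 3) and labelled WT (n = 3) under RP105 came from cells that received 2 µg/mL of RP105 antibody, the virus after 48 h, and were collected at day 5. The ATM-deficient libraries (n = 3), the WT libraries with the ATM inhibitor KU55933 at 10 µM from the time of infection (n = 3) and the WT libraries without inhibitor (n = 4) came from cells that received 1 µg/mL of anti-CD40 with 20 ng/mL of IL4, the virus after 24 h, and were collected at day 4. The labels do not say whether replicates were separate mice, so the p-values measure the spread between these libraries, which may be technical.

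I-SceI is a homing endonuclease of yeast mitochondria that recognises a long site and leaves staggered ends with a 3′ overhang. It tolerates some changes within the site, so a genome without the exact site can still hold places that it cuts, called cryptic sites. Such a cut gives a second pair of broken ends in the same cell, available for joining to the bait. Activated B cells also break DNA through AID, the deaminase of class switching, whose breaks spread over switch regions and the starts of some transcribed genes. The 5 genes have no common function. Mmp24 encodes a membrane-bound matrix metalloproteinase. Fermt2 encodes a kindlin, which activates integrins at adhesion sites. Apbb1 encodes an adaptor that binds the tail of the amyloid precursor protein. Scd2 encodes a stearoyl-CoA desaturase of fatty acid synthesis, and Plcd3 a phospholipase C of the delta class.

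The sequences around the clusters are shown first because they are what the 4 genes share and the rule did not use. The reads that carry the prey also carry a part of the bait, and the I-SceI site stood in 20.6% of the reads outside chromosome 15. Its 18 bases were compared with every position of both strands in the mm9 sequence that the prey alignments of each gene's cluster cover. In the lines below, capitals mark bases equal to the I-SceI site, with 4 flanking bases on each side in lower case. All are written 5′ to 3′ on the strand named.
I-SceI site in the bait reads: TAGGGATAACAGGGTAAT
Scd2, chr19:44375498-44375515 of mm9, plus strand: gcaaTAGGGATAACAGGGTcATctac
Apbb1, chr7:112727865-112727882 of mm9, minus strand: atggTtGGGATAACAGGGcAgTttag
Mmp24, chr2:155631480-155631497 of mm9, plus strand: ctgccAGGGATAcCAGGGcAgagtag
Fermt2, chr14:46096826-46096843 of mm9, minus strand: agcacAGGGATAcCAGGGcAgataca
Counting positions from 1 at the 5′ end of the I-SceI site and writing its base first, Scd2 had the single substitution A16C. Apbb1 had A2T, T15C and A17G. Mmp24 and Fermt2 had the same 5 substitutions, T1C, A9C, T15C, A17G and T18A, so that their 18 bases were identical although the genes lie on different chromosomes. T15C and A17G were shared by 3 of the 4 genes. Across the 4 matches, 11 of the 18 bases were those of the I-SceI site in every gene. The annotation of mm9 was not used here, so exon, intron and UTR positions are not given.

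Plcd3 had no such match. Its closest stretch differed from the I-SceI site at 10 of 18 positions, with sequence at hand for 57.4% of the 230 bp searched, and it is called below by its gene name only. Among the other 157 gene names with at least 10 junctions, the closest stretch had a median of 8 differences. A match with at most 5 differences was found in 4 of these 157 names, or 2.55%. They were Palld with 2 differences, Mpdu1 with 3, Gucy2f with 4 and Hydin with 5, and apart from Mpdu1 they are named after their values were seen. Junctions in these 4 were also concentrated, with 12 of 16 junctions in Palld, 19 of 19 in Mpdu1, 30 of 40 in Gucy2f and 7 of 11 in Hydin inside 200 bp. The searched stretches were longer in the 5 genes (209 to 318 bp) than in the median gene (189 bp), which gives a chance match more room, and the size of that effect was not tested.

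The width of each cluster was measured as the share of a gene's junctions that fell in its densest 200 bp, over all 16 libraries. All 37 Plcd3 junctions lay within such a stretch (95% Clopper-Pearson interval 90.5 to 100). In Fermt2 47 of 56 did (83.9%, 71.7 to 92.4), and in Apbb1 44 of 57 (77.2%, 64.2 to 87.3). Scd2 had 28 of 39 (71.8%, 55.1 to 85.0) and Mmp24 84 of 132 (63.6%, 54.8 to 71.8). The clusters of Mmp24, Fermt2, Apbb1 and Plcd3 drew on all 5 groups and 13 to 16 libraries, and that of Scd2 on 11 libraries, none of them labelled ATM-deficient under RP105. These intervals cover counting error only, and since the clusters chose the genes the shares carry no test. The median of the other 157 gene names was 18.2%, and the known AID targets compared (the genes Il4ra, Il21r, Pim1, Cd83, Pax5, Bcl6 and Aff3 and the switch regions Smu, Sg1 and Se) lay between 11.1% and 19.5%. Mmp24 had more junctions than all but 5 other gene names, and yet most of them fell in one short stretch, whereas Il4ra with 252 junctions had 11.1% in its densest stretch.

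**Figure D1:**
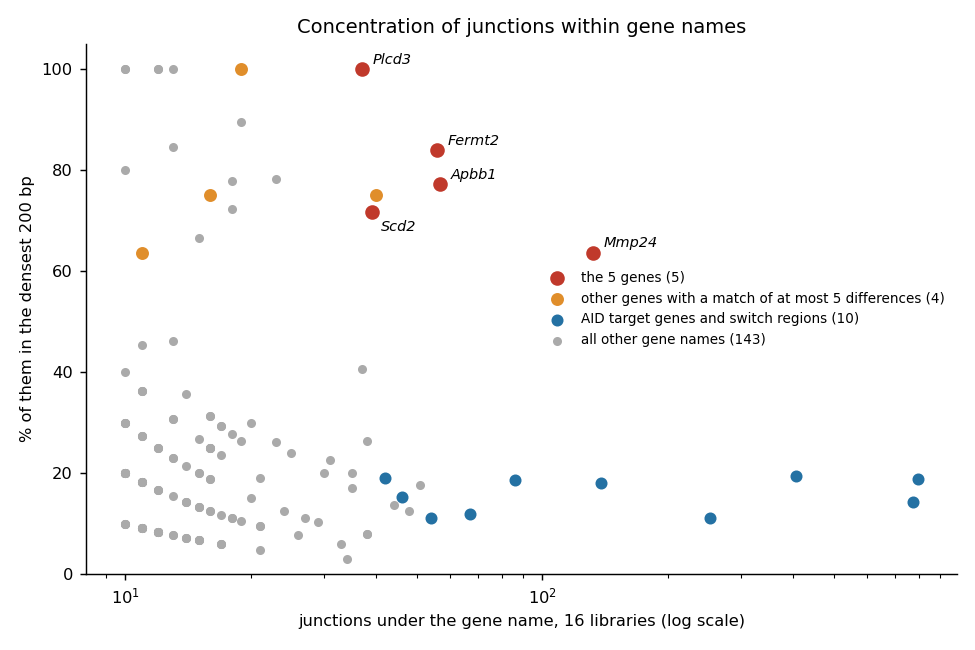
Each point is 1 of the 162 gene names with at least 10 junctions, with its number of junctions on the horizontal log axis and the share of them in its densest 200 bp on the vertical axis. The 5 genes (red) lie between 63.6% and 100%, as do 4 other names with a match to the I-SceI site (orange), while the AID targets (blue) lie between 11.1% and 19.5%.

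A share as high as that of Mmp24 occurred in 16 of the other 157 names, most of them with few junctions. In several of these the cluster was a single position found once per library. Atcay had 11 of its 13 junctions at 1 position, in 11 libraries, and Ddah1 13 of 19 in 13 libraries. The deposited lists hold almost no position and strand more than once within a library (8 junctions outside chromosome 15 were such repeats), so a pile at 1 position counts libraries rather than events. By contrast, the junctions in the densest stretches of Mmp24, Fermt2, Apbb1 and Scd2 stood at 46, 33, 31 and 18 distinct combinations of position and strand. Plcd3 had 18 for its 37 junctions, with 14 at 1 position.

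The strands of the prey were then set against the cut that I-SceI would make in each match, after base 9 of the site on its own strand and after base 5 on the other. A plus-strand prey runs from the junction towards higher coordinates and so belongs to the right broken end. A minus-strand prey belongs to the left end. If the prey is a broken end that lost some bases, plus-strand junctions lie to the right of the cut and minus-strand junctions to the left. This use of the site as the centre was chosen after the sequences were seen.

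Within 500 bp of the cut, junctions of all 4 genes with a match lay mostly on the side that belongs to their strand. In Mmp24 92 of 106 did (86.8%, 95% interval 78.8 to 92.6), and in Fermt2 44 of 50 (88.0%, 75.7 to 95.5). Apbb1 had 43 of 49 (87.8%, 75.2 to 95.4) and Scd2 25 of 31 (80.6%, 62.5 to 92.5). With the median junction as the centre in place of the site, in the densest 200 bp, the shares were 86.9% in Mmp24, 78.7% in Fermt2, 68.2% in Apbb1 and, with 14 of 28, evenly split in Scd2, where all 28 junctions were on the plus strand. Most junctions on the other side were within 10 bp of the cut, 12 of 14 in Mmp24, 5 of 6 in Fermt2, 6 of 6 in Apbb1 and 6 of 6 in Scd2. The others lay 70 bp and 470 bp past it in Mmp24 and 160 bp in Fermt2. The exceptions were unequal between strands. Within 100 bp of the cut in Mmp24 they were 12 of 31 minus-strand and 1 of 42 plus-strand junctions, and 9 of the 12 stood at 1 position in 9 libraries. All 6 of Apbb1 were on the minus strand. The exceptions shared a median of 5 bases with the bait in Mmp24, 7 in Fermt2, 9.5 in Apbb1 and 11.5 in Scd2, bases that read equally as bait or prey, so that the exact position of those joins is uncertain by that much.

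**Figure D2:**
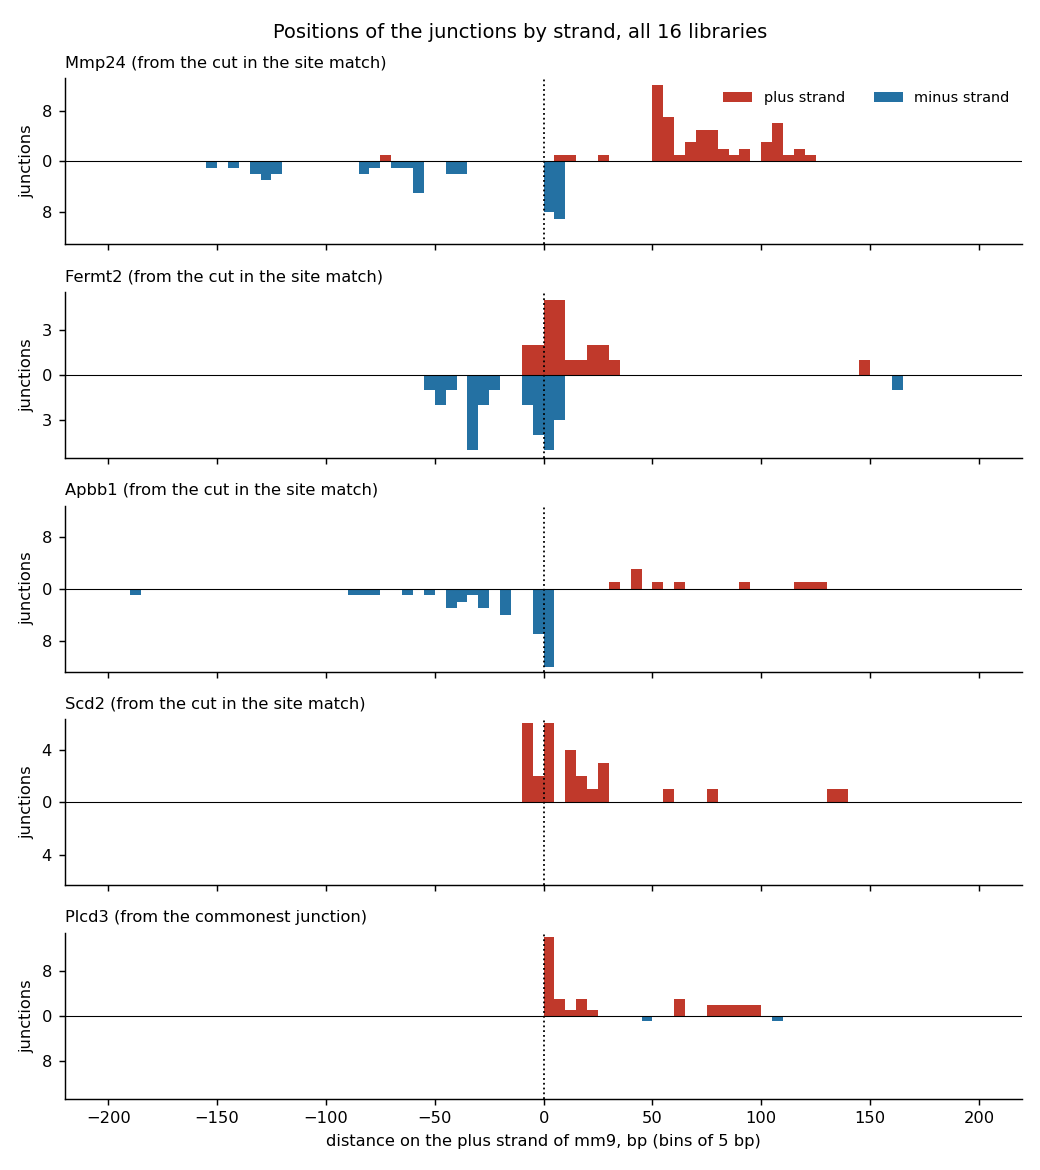
Junctions per 5 bp bin over all 16 libraries, with plus-strand prey above and minus-strand prey below the line, against the distance from the cut in the site match (Plcd3, from its commonest junction). Most plus-strand junctions lie to the right and most minus-strand junctions to the left of the cut in Mmp24, Fermt2 and Apbb1. Exceptions lie close to the cut (12 of 31 minus-strand junctions within 100 bp in Mmp24). Within 500 bp of the cut Scd2 has almost only plus-strand junctions. In Plcd3 35 of 37 junctions are on the plus strand from 1 position onwards.

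Within 500 bp of the cut the genes differed in which end was joined. Mmp24 and Fermt2 gave both ends, with 58 plus-strand and 48 minus-strand junctions in Mmp24 and 22 and 28 in Fermt2. Apbb1 gave mostly the left end, with 38 minus-strand and 11 plus-strand junctions. Scd2 gave almost only the right end, with 29 plus-strand junctions and 2 minus-strand junctions, both in the libraries labelled WT under RP105. The direction in which the fragments between a junction and the next HaeIII site can be amplified and aligned bears on such a split and was not tested, apart from Mmp24. There a HaeIII site (GGCC) stood at chr2:155631453-155631456 and 17 minus-strand reads ended at it.

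The genes also differed in how many bases were lost from the end. Fermt2 junctions lay closest, with a median loss of 8.5 bp and 26 of 50 junctions within 10 bp of the end. Scd2 had a median of 13 bp and Apbb1 of 29 bp. Mmp24 had a median of 67.5 bp, with 18 of 106 within 10 bp. The Mmp24 distances, here and by group, are on mm9 coordinates. On the plus strand most of them count a stretch of 35 bp that reads of 4 libraries lack, described below, and they were not corrected for it. By group the Mmp24 median was 78 bp and 71.5 bp in the libraries labelled ATM-deficient and labelled WT under RP105, and 64 bp, 72.5 bp and 54 bp in the ATM-deficient, KU55933 and WT libraries under anti-CD40/IL4. The median of the WT libraries takes in 3 plus-strand junctions of replicate 1, at losses of 8, 12 and 31 bp. These are the only plus-strand junctions from the start of the site to the end of that stretch. Counts per group were 13 to 34 junctions, and the differences between groups were not tested.

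On the right side of the Mmp24 site some reads lack a stretch of mm9. Just right of the site lies a stretch of 35 bp in mm9 (chr2:155631504-155631538). From the start of the site to the end of this stretch stood 3 plus-strand junctions, 2 within the site and 1 in the stretch, all of them from WT replicate 1 under anti-CD40/IL4. The next junctions formed a pile of 7 at position 155631539, in 7 libraries and all 5 groups, and in all 7 reads the 4 bases before that position were the 4 that precede the stretch in mm9. In 4 of these reads, from 4 libraries, at least 8 bases on each side of the stretch stood next to each other. Reads that followed mm9 across either edge of the stretch numbered 3, all of WT replicate 1, which also gave 1 of the 7 reads of the pile. The lines below give the place on the plus strand, with the bases before the stretch in lower case and what follows in capitals.
Mmp24 reads without the stretch: gagtaggcAAAGGGAC
Mmp24 in mm9, chr2:155631496-155631511: gagtaggcAAGAATGT
Over at least 8 bases on each side, the stretch was thus present in reads of 1 library and missing in 1 read each of 4 others. With it taken out, the median loss of the 57 plus-strand junctions right of the cut was 39 bp, against 74 bp on mm9 coordinates. The stretch does not touch the minus-strand junctions, whose median loss within 500 bp was 60.5 bp in Mmp24, against 9.5 bp in Fermt2 and 11 bp in Apbb1. Within 100 bp these medians were 1 bp, 9.5 bp and 5 bp, so the order of the genes depended on the range. The HaeIII site left of the Mmp24 cut bears on which minus-strand junctions can be aligned, and its effect on the loss was not tested. The stretch was noticed in the data, and the other 11 libraries had no read of either form.

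**Figure D3:**
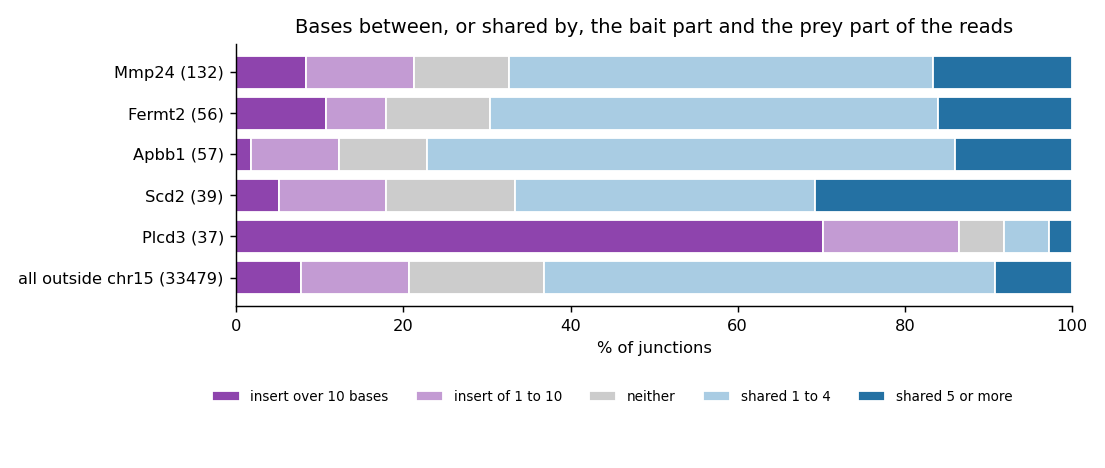
Shares of junctions by the number of bases between the bait part and the prey part of the read, or shared by both, with the number of junctions in brackets. Plcd3 has an insert of over 10 bases in 70.3% of junctions, the other 4 genes in 1.75% to 10.7% and all junctions outside chromosome 15 in 7.69%. In Mmp24 some of the bases counted as inserts can be prey from left of the missing stretch.

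Long inserts were common at the join in Plcd3. Shared bases were common in the other 4 genes, as they were in all junctions outside chromosome 15. Inserts of over 10 bases between bait and prey stood in 8.33% of Mmp24, 10.7% of Fermt2, 1.75% of Apbb1 and 5.13% of Scd2 junctions, against 7.69% of all junctions outside chromosome 15. In Plcd3 26 of 37 junctions had one (70.3%), and 1 of 37 shared 5 or more bases. All 7 reads of the Mmp24 pile at position 155631539 counted as having an insert, of any length. The bases just before that position were those left of the missing stretch in mm9. Some bases counted as inserts in Mmp24 can therefore be prey, and its share was not corrected for this. Sharing of 5 or more bases occurred in 30.8% of Scd2, 16.7% of Mmp24, 16.1% of Fermt2 and 8 of 57 Apbb1 junctions. Among all junctions outside chromosome 15 it occurred in 9.14%. These shares did not rank by the closeness of the site to that of the bait. Scd2, with 1 difference, had the highest share. Apbb1, with 3 differences, had the lowest of these 4 genes, below Mmp24 and Fermt2 with 5 each. Whether the similarity of the sites bears on the sharing was not tested. In Scd2 6 junctions of 6 libraries stood at position 44375497 on the plus strand, just before the site, with a median of 11.5 shared bases.

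Plcd3 junctions also ended alike. Of the 35 plus-strand reads, 33 ended at the same base, 126 bp along from the commonest junction at position 102962731. A shared end is not particular to Plcd3, since 17 minus-strand reads of Mmp24 ended at the same HaeIII site. Whether a HaeIII site stands at the Plcd3 end was not tested. The commonest Plcd3 junction occurred 14 times in 13 libraries and all 5 groups. In 13 of the 14 reads the same 4 bases came before it, while the 10 bases further back had 10 different forms. The next 14 bases were the same in all 14 reads, but they were not those of mm9. They held an extra A that mm9 lacks at that place. The lines below give mm9 with capitals from the junction onwards, and the 4 and 14 bases common to the reads.
Plcd3 in mm9, chr11:102962725-102962744, plus strand: tttggtGCTGCTGTCCGACG
Plcd3 reads at the commonest junction: agcagctgctagtccgac
What these reads derive from was not tested, and Plcd3 was therefore also left out of the summed share below as an alternative chosen after seeing the data.

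For the series as a whole, libraries held 4484 to 18264 junctions, of which 586 to 5604 lay outside chromosome 15, and 45% of the junctions outside it carried no gene name. The share of all junctions within 1 Mb of the break was 54.6% ± 4.25 (SD, n = 3) in ATM-deficient, 54.1% ± 1.53 (SD, n = 3) in KU55933 and 78.7% ± 2.43 (SD, n = 4) in WT libraries under anti-CD40/IL4. Under RP105 it was 87.3% ± 1.38 (SD, n = 3) in the libraries labelled ATM-deficient and 64.2% ± 1.43 (SD, n = 3) in those labelled WT, so the genotypes differed in the opposite direction. The RP105 libraries are therefore called by their labels throughout, and a genotype difference under RP105 rests on those labels. By their read names all RP105 and KU55933 libraries were sequenced on MiSeq runs and the other anti-CD40/IL4 libraries on 454 runs. Stimulus, infection time, harvest day and, except for KU55933, sequencer cannot be told apart, nor can inhibitor and sequencer.

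Together the 5 genes took a larger share of junctions outside chromosome 15 in RP105 libraries. The share was 3.58%, 2.69% and 2.77% in the libraries labelled ATM-deficient and 1.91%, 2.09% and 1.56% in those labelled WT. Under anti-CD40/IL4 it was 0.639%, 0.995% and 1.05% in ATM-deficient, 0.610%, 0.313% and 0.410% in KU55933 and 0.842%, 0.440%, 0.994% and 0.684% in WT libraries. No RP105 library was as low as the highest anti-CD40/IL4 library, and the KU55933 libraries were among the lowest. Without Plcd3 the means were 2.63% and 1.63% in the libraries labelled ATM-deficient and labelled WT under RP105, and 0.753%, 0.408% and 0.637% in the ATM-deficient, KU55933 and WT libraries. The order depends on the base of the share. Of all junctions, chromosome 15 included, the genes took 0.302% and 0.402% in the libraries labelled ATM-deficient and labelled WT under RP105, and 0.286%, 0.145% and 0.128% in the ATM-deficient, KU55933 and WT libraries under anti-CD40/IL4. No test was made on the sum, since its members were chosen.

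**Figure D4:**
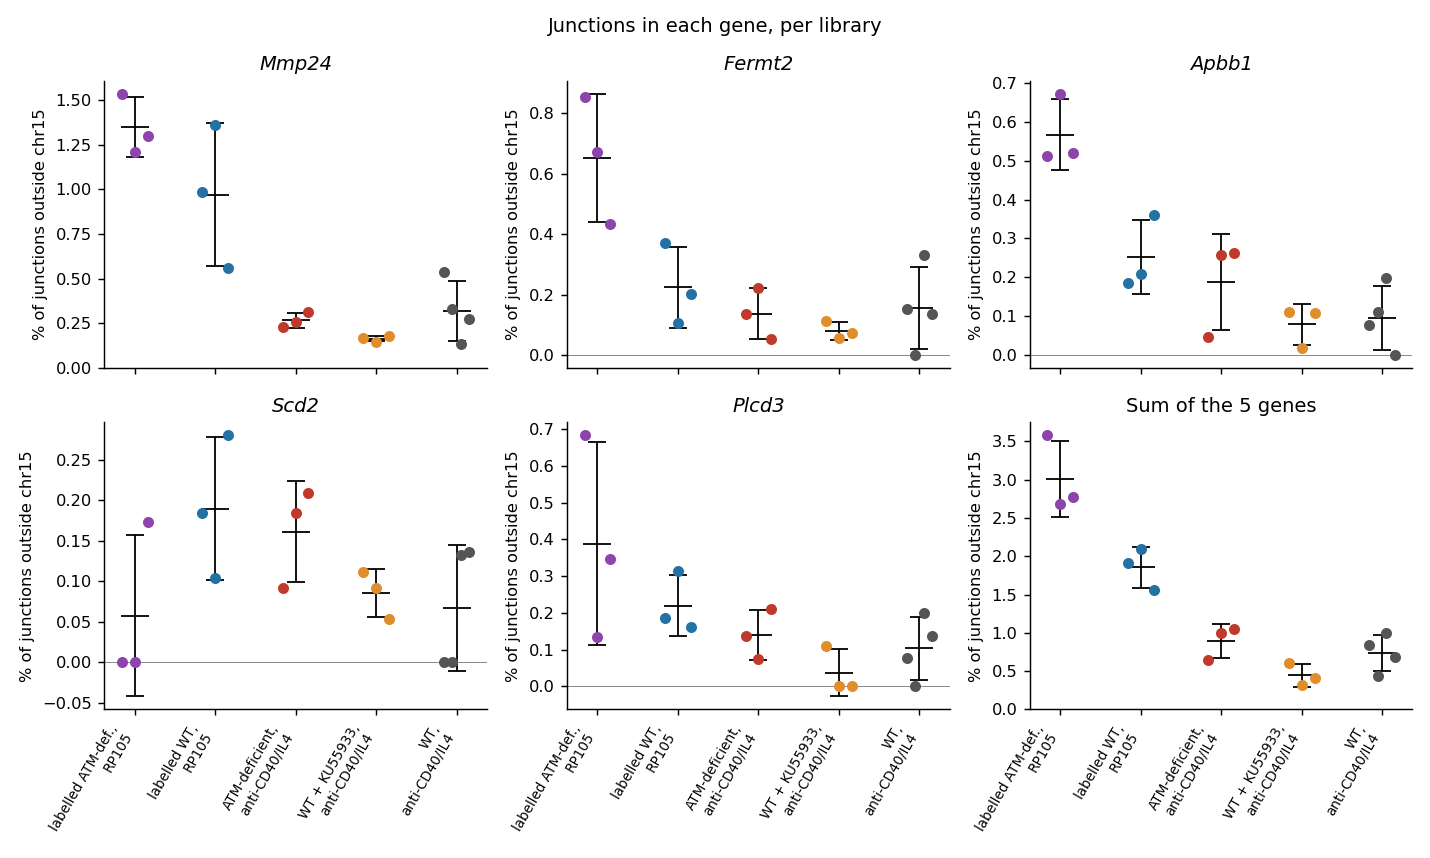
Share of each gene, and of the 5 together, among the junctions outside chromosome 15 in each library (points), with the group mean and SD (bars), RP105 groups on the left and anti-CD40/IL4 groups on the right. Mmp24 is at 0.561% to 1.54% in the 6 RP105 libraries and at 0.133% to 0.536% in the 10 anti-CD40/IL4 libraries, and Scd2 is at 0 in 2 of the 3 libraries labelled ATM-deficient under RP105.

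Gene by gene, counts were tested with edgeR's quasi-likelihood test over the 162 gene names with at least 10 junctions, with each library's junctions outside chromosome 15 as its size and Benjamini-Hochberg adjustment over all of them. For RP105 against anti-CD40/IL4, averaged over the WT and ATM-deficient labels, 11 of the 162 names passed an adjusted p of 0.05 (6.79%), 2 of them higher under RP105 (1.23%) and 9 lower (5.56%). Mmp24 was 1 of these 2, and it was the only one of the 5 genes called. The median log2 fold change was 1.24 over the 5 genes and -0.42 over all 162. This contrast weighs both RP105 groups equally, so it stays the same whichever of them carries which genotype label.

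Mmp24 rose 3.78-fold under RP105. Its share was 1.54%, 1.21% and 1.30% in the libraries labelled ATM-deficient under RP105 (mean 1.35% ± 0.169, SD, n = 3) and 0.985%, 1.36% and 0.561% in those labelled WT (0.969% ± 0.400, SD, n = 3). Under anti-CD40/IL4 it was 0.228%, 0.258% and 0.314% in ATM-deficient (0.267% ± 0.0435, SD, n = 3), 0.166%, 0.147% and 0.178% in KU55933 (0.164% ± 0.0157, SD, n = 3) and 0.536%, 0.330%, 0.133% and 0.274% in WT libraries (0.318% ± 0.167, SD, n = 4). All 6 RP105 libraries were above all 10 anti-CD40/IL4 libraries, although the lowest and the highest, 0.561% and 0.536%, nearly met. The log2 fold change was 1.92 (SE 0.42, edgeR adjusted p = 0.000258). It was 1.20 with an adjusted p of 0.0545 with TMM factors, which ends the call, and 1.27 (adjusted p = 0.0418) with all junctions as library size. In absolute counts the gene had 2 to 16 junctions per library and was present in all 16.

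Apbb1 and Fermt2 had values in the same direction that did not pass. Apbb1 had 3, 5 and 6 junctions in the libraries labelled ATM-deficient and 3, 2 and 9 in those labelled WT under RP105. It had 1, 7 and 5 in ATM-deficient, 4, 1 and 6 in KU55933 and 1, 1, 3 and 0 in WT libraries under anti-CD40/IL4. As shares the means were 0.568% and 0.252% in the libraries labelled ATM-deficient and labelled WT under RP105, and 0.188%, 0.0788% and 0.0963% in the ATM-deficient, KU55933 and WT libraries, and the ranges of the labelled WT and the ATM-deficient libraries overlapped. The log2 fold change was 1.39 (SE 0.52, edgeR adjusted p = 0.0971).

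Fermt2 had 5, 5 and 5 junctions in the libraries labelled ATM-deficient and 6, 1 and 5 in those labelled WT under RP105. Under anti-CD40/IL4 it had 3, 6 and 1 in ATM-deficient, 4, 3 and 4 in KU55933 and 2, 0, 5 and 1 in WT libraries. The counts of the libraries labelled ATM-deficient under RP105 lay above those of KU55933 and within those of the other groups. As shares of their fewer junctions they averaged 0.653% ± 0.211 (SD, n = 3), against means of 0.0792% to 0.225% in the other groups. The log2 fold change for the stimulus was 1.24 (SE 0.51, edgeR adjusted p = 0.145). With only the 29 names of at least 30 junctions in the fit, Apbb1 (adjusted p = 0.0196) and Fermt2 (adjusted p = 0.0313) also passed, as 3 of the 5 genes did there, while 15 of the 29 names were called.

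Scd2, the gene with the closest match, had no higher share under RP105 as a whole. It had 0, 0 and 2 junctions in the libraries labelled ATM-deficient and 3, 1 and 7 in those labelled WT under RP105. Under anti-CD40/IL4 it had 2, 5 and 4 in ATM-deficient, 4, 5 and 3 in KU55933 and 0, 0, 2 and 1 in WT libraries. A count of 0 allows a share of up to 0.512% and 0.403% in the 2 libraries labelled ATM-deficient under RP105 that had none, above every value measured for the gene, so an absence could not be shown at this depth. Neither of the 2 junctions in the third library lay within 500 bp of the site. The log2 fold change for the stimulus was 0.29 (SE 0.78, edgeR adjusted p = 0.938).

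Plcd3 had 4, 1 and 4 junctions in the libraries labelled ATM-deficient and 3, 3 and 4 in those labelled WT under RP105. Under anti-CD40/IL4 it had 3, 2 and 4 in ATM-deficient, 4, 0 and 0 in KU55933 and 1, 0, 3 and 1 in WT libraries. The count never exceeded 4 in any library whatever its depth, and the 2 libraries at 0 with KU55933 were the 2 deepest of all, with 5432 and 5604 junctions outside chromosome 15. The log2 fold change for the stimulus was 1.12 (SE 0.59, edgeR adjusted p = 0.354).

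**Figure D5:**
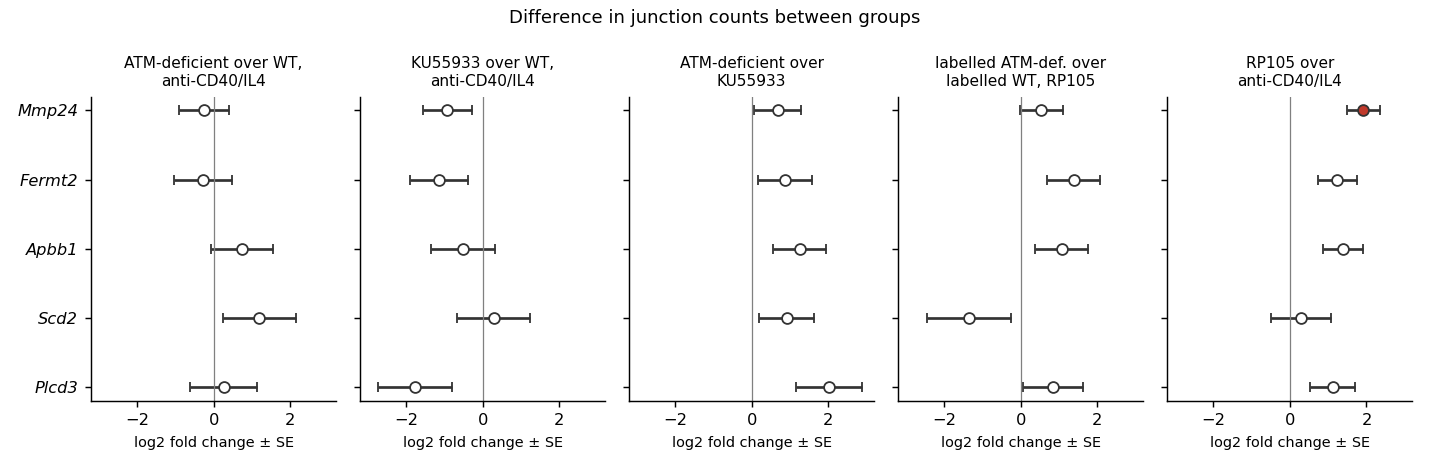
Log2 fold change of each gene with its SE in 5 comparisons, from edgeR's quasi-likelihood test on junction counts, the group named first over the group named second, and filled where the adjusted p is under 0.05. Mmp24 in RP105 over anti-CD40/IL4 libraries, at 1.92, is the only filled point.

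Absence of ATM made no difference that passed the test under anti-CD40/IL4. EdgeR called 0 of the 5 genes and 0 of the 162 names (0%), DESeq2 also 0, and 8 names (4.94%) and none of the 5 genes had an unadjusted p under 0.05. The log2 fold changes of ATM-deficient over WT were -0.25 (SE 0.66) in Mmp24, -0.27 (SE 0.76) in Fermt2, 0.75 (SE 0.80) in Apbb1, 1.20 (SE 0.95) in Scd2 and 0.26 (SE 0.88) in Plcd3. The sign turned in Mmp24 (0.60) and Fermt2 (0.55) with all junctions as library size. The intervals were wide, from -1.54 to 1.04 in Mmp24, the gene with most junctions, so a change of about that size in either direction could not be seen. Mmp24 gave 18 junctions of 6818 in ATM-deficient and 14 of 4457 in WT libraries.

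The inhibitor gave values below WT in 4 genes, none of which passed. Of the 162 names 1 was called, lower with KU55933 (0.617%), and none was a member of the set, with 23 names (14.2%) and none of the 5 genes at an unadjusted p under 0.05. DESeq2 called 2 names and none of the 5 genes. The log2 fold changes of KU55933 over WT were -0.92 (SE 0.64) in Mmp24, -1.14 (SE 0.75) in Fermt2, -0.50 (SE 0.83) in Apbb1, 0.29 (SE 0.96) in Scd2 and -1.75 (SE 0.97) in Plcd3. The median was -0.92 over the 5 genes and 0.48 over all 162 names. The sign of Apbb1 turned (0.34) with all junctions as library size. Plcd3 passed without KU55933 replicate 1, the only library of the group that had any of its junctions (adjusted p = 0.0433).

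ATM-deficient over KU55933 libraries had positive values in all 5 genes, and edgeR called 0 of them and 0 of the 162 names (0%). At an unadjusted p under 0.05 there were 17 names (10.5%), 1 of the 5 genes among them, and DESeq2 called 0. The values were 0.67 (SE 0.62) in Mmp24, 0.87 (SE 0.72) in Fermt2, 1.25 (SE 0.68) in Apbb1, 0.91 (SE 0.73) in Scd2 and 2.02 (SE 0.85, edgeR adjusted p = 0.271) in Plcd3. Their median was 0.91, against -0.18 over all names. Without KU55933 replicate 1 Plcd3 passed (adjusted p = 0.0117), with a fold against libraries that are all at 0. This comparison shares the ATM-deficient and KU55933 libraries with those above.

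Between the genotype labels under RP105, edgeR called 0 of the 5 genes and 0 of the 162 names (0%), with 4 names (2.47%) at an unadjusted p under 0.05, 1 of the 5 genes among them, and DESeq2 called 0. The log2 fold changes of the libraries labelled ATM-deficient over those labelled WT were 0.53 (SE 0.56) in Mmp24, 1.38 (SE 0.69, edgeR adjusted p = 0.635) in Fermt2, 1.06 (SE 0.68) in Apbb1, -1.35 (SE 1.09) in Scd2 and 0.84 (SE 0.79) in Plcd3. With all junctions as library size Mmp24 was at -0.57 and Plcd3 at -0.24. The difference between genotype labels under RP105, less the one between genotypes under anti-CD40/IL4, was tested as an interaction, with 0 of the 5 genes and 0 of the 162 names called (0%), 12 names (7.41%) and none of the 5 genes at an unadjusted p under 0.05, and 0 called by DESeq2. Its values were 0.78 (SE 0.87) in Mmp24, 1.65 (SE 1.04) in Fermt2, 0.31 (SE 1.16) in Apbb1, -2.54 (SE 1.45) in Scd2 and 0.58 (SE 1.21) in Plcd3. All but Scd2 turned sign with all junctions as library size.

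Outside the densest 200 bp lay 48 of 132 junctions in Mmp24, 9 of 56 in Fermt2, 13 of 57 in Apbb1 and 11 of 39 in Scd2. Beyond 500 bp from the cut lay 26 of 132 in Mmp24 (19.7%), 6 of 56 in Fermt2, 8 of 57 in Apbb1 and 8 of 39 in Scd2. In Mmp24 22 of the 26 were still within 5000 bp, at a median distance of 1293.5 bp for all 26, and 17 of the 26 came from RP105 libraries. Mmp24 junctions in its densest 200 bp alone gave a log2 fold change of 1.56 for the stimulus (SE 0.49, edgeR adjusted p = 0.0482). All 5 genes were present together in 9 of the 16 libraries, and at least 2 of them in each.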

How the data were processed

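Each row of the deposited files is 1 junction with its prey position, strand, block coordinates, gene name and read sequence, per the file headers. Coordinates are on mm9, the build in the submitters' processing notes. The aligner is not given in the sources used here, nor are the authors' filters. A read count per junction, in the deposited older files only, entered no test. Repeated rows (56), mitochondrial rows (3) and 1 broken record were left out. The junction is the first prey base, counted from 1. Counts are junctions per gene name and library, not normalized. They were compared with edgeR 4.0.16 in R 4.3.3 (glmQLFit and glmQLFTest, all 16 libraries, no covariates), and DESeq2 1.42.0 was an alternative. The SE of a log2 fold change is its size divided by the square root of F, and intervals of fold changes are 1.96 SE on each side. The tests were also run on simulated counts, drawn with a common dispersion for all genes. The outcome is not reported here, and no call above rests on it. Shares carry Clopper-Pearson intervals at 95%. The bait part of a read was found by 12-base words present in at least 1% of reads. The site search ran from the first to the last junction in each gene's densest 200 bp, with 60 bp on either side. No genome sequence was used beyond the mm9 bases that the alignments carry. The members and lists were chosen with earlier results of these data known. Named besides the 5 genes are names with the narrowest clusters, AID targets and names holding a site match. Alternatives were scalings, count units, filters, windows, blocks and each library left out. Replicate numbers were not used as pairs in the main fit. Over 30 same-numbered pairs, in 29 gene names, the deviations from group means correlated at -0.36 to 0.52, and 10 pairs were above 0.1. Differently numbered pairs were not compared, so whether some libraries are paired was not settled.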

Additional observations from a re-analysis of the deposited data

How the results depend on the processing

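Of the 115 recounts of members called, 111 gave the same verdict. For RP105 against anti-CD40/IL4 the count was 0 with TMM factors and 3 with at least 30 junctions per name, against 1. Leaving out 1 library gave 0 to 1 called for KU55933 against WT and for ATM-deficient against KU55933 (Plcd3, without KU55933 replicate 1), 1 throughout for the stimulus and 0 throughout elsewhere. The log2 fold change of Mmp24 for the stimulus was 1.20 to 2.15 over 23 alternatives, with adjusted p from 3.09e-05 to 0.0545, past the threshold in 22. With the replicate number as a block it was 1.91 and the count of members called was 1, and 0 in every other comparison. The run as a block was not run for KU55933 or the stimulus, since no run holds both sides. All names called for KU55933 against WT numbered 1, against 10 with TMM factors and 15 with all junctions as library size, and for the stimulus 11, against 6 without a filter and 5 in the densest 200 bp. The median of all names for the stimulus moved to -0.88 with TMM factors and to -0.89 with all junctions.

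Of 575 recomputed fold changes 47 turned sign, none of them called, and their cause was not tested. For ATM-deficient over WT under anti-CD40/IL4 Mmp24 was 0.46 with TMM factors, 0.60 with all junctions, 0.57 by DESeq2, 0.58 with the run as a block and -0.57 to 0.21 with 1 library left out. Fermt2 was 0.42, 0.55 and 0.53 under the first 3, 0.12 in the densest 200 bp and -0.81 to 0.49 with 1 library left out, and Plcd3 -0.50 with the run as a block and -0.10 to 0.92 with 1 left out. For KU55933 over WT Apbb1 was 0.24, 0.34 and 0.32 with TMM factors, all junctions and DESeq2 and -0.90 to 0.16 with 1 left out, and Scd2 -0.17 to 1.14 with 1 left out. For the RP105 labels Mmp24 was -0.17, -0.57 and -0.33 under the same 3 settings, Plcd3 -0.24 and -0.10 under the last 2 and Apbb1 -0.0033 with all junctions. For the stimulus Scd2 was -0.30, -0.31 and -0.012 under the 3, -1.70 in the densest 200 bp and -1.65 to 0.71 with 1 left out. For the interaction Mmp24 was -0.63, -1.17 and -0.90, Apbb1 -1.25, -1.60 and -1.56, and Plcd3 -0.91, -1.33 and -1.15 under the 3, and Fermt2 -0.26 and -0.15 under the last 2. With the run as a block the interaction of Mmp24 was -0.029 and of Apbb1 -0.11, and with 1 left out Apbb1 was -0.35 to 0.76 and Plcd3 -0.083 to 0.95.

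Shares of the 5 genes moved beyond 1 SD to 0.302% and 0.402% (libraries labelled ATM-deficient and WT under RP105) and 0.286%, 0.145% and 0.128% (ATM-deficient, KU55933, WT) with all junctions as base. The labelled WT share was 2.15% without chromosome 12, and in the densest 200 bp the labels had 2.26% and 1.37%. The share of junctions in the densest window was 30.3%, 43.9%, 76.5% and 82.6% in Mmp24 at 50, 100, 500 and 1000 bp, 66.1% in Fermt2, 56.1% in Apbb1 and 62.2% in Plcd3 at 50 bp, and 87.7% in Apbb1 at 1000 bp. Junctions on the side of their strand were 96.0% and 94.5% in Mmp24 at 500 and 1000 bp and 72.7% in Scd2 at 1000 bp. With the site as centre they were 89.4% in Fermt2, 86.4% in Apbb1 and 76.9% in Scd2 within 100 bp, and 87.8% and 80.6% in Apbb1 and Scd2 within 500 bp. The median distance in Plcd3 was 15 bp at 100 bp. Depth limits all gene counts: 3 junctions, the floor, are 0.0535% to 0.512% of a library.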
